A study of Homo sapiens with 6 samples.

Results

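CDK12 and CDK13, the kinases inhibited by THZ531, belong to a small family of cyclin-dependent kinases that act on RNA polymerase II and its cofactors. The polyadenylated 3′ ends of 10 genes for the other transcriptional kinases and their partners are described here. CDK7, CCNH and MNAT1 encode CDK7, cyclin H and MAT1, which form the CDK-activating kinase. CDK9, CCNT1 and CCNT2 encode CDK9 and cyclins T1 and T2, the parts of the positive transcription elongation factor P-TEFb. HEXIM1 and LARP7 encode proteins of the 7SK small nuclear ribonucleoprotein (snRNP). CDK8 and CCNC encode CDK8 and cyclin C of the Mediator kinase module. All peaks of poly(A) 3′-sequencing whose summit lay in the body of these genes, or up to 4 kb past their 3′ end, were taken, which gave 124 of the 200023 peaks in the list.

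The libraries came from IMR-32 cells, an established human neuroblastoma line with amplified MYCN, and all groups share this line. There were 6 libraries, with 2 biological replicates each for the solvent DMSO, for 400 nM THZ531 given over 2 h and for 400 nM THZ531 given over 6 h. The labels name both incubation times for DMSO without assigning one to a library. THZ531 binds CDK12 and CDK13 covalently, and the labels name no alteration of the 10 genes. The deposited list was called once on merged reads. It gives neither the strand of a peak nor the reads that each library contributed. DMSO and THZ531 were therefore not compared, no value has a replicate error, and no test between groups was possible. Intervals given below are 95% intervals for counting error only.

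The CDK-activating kinase is part of the initiation factor TFIIH, phosphorylates the carboxy-terminal repeats of RNA polymerase II and activates other kinases of the family through their activation loops. P-TEFb releases paused polymerase by phosphorylating the polymerase, the pausing factor NELF and the elongation factor DSIF. The 7SK snRNP holds P-TEFb in an inactive pool, with HEXIM1 as the inhibitor and LARP7 as the protein that stabilises 7SK RNA. CDK8 and cyclin C bind Mediator together with MED12 and MED13 and modulate its contact with the polymerase. The 3′ end of an mRNA is made by cleavage a short way downstream of a signal hexamer, most often AATAAA, followed by addition of a poly(A) tail. An intron can hold such signals as well. Cleavage there yields a shortened transcript, and U1 snRNP, which binds sites like those at the start of introns, is known to suppress it.

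All 10 members had a peak in the last exon of the canonical transcript or at its end, beside 64.8% of protein-coding genes. The 30 bases that end at the 3′ edge of the tallest of these peaks, where cleavage would lie, are printed for 9 of the genes to show the sequence just before each peak's edge. In MNAT1, CDK9, CCNT2 and LARP7 that edge lay away from the annotated end, as described for each gene. They are read 5′ to 3′ on the gene strand of GRCh38, with a signal hexamer in capitals, AATAAA or ATTAAA.
CDK7, chr5:69277386-69277415, plus strand: gggaaaacttAATAAAaattattaccagtt
CCNH, chr5:87394268-87394297, minus strand: gtaaAATAAAccatcttcaaaagagctaga
MNAT1, chr14:60968649-60968678, plus strand: tttttaaaaAATAAAgctataatttatatt
CDK9, chr9:127790057-127790086, plus strand: aATTAAAagttgaattttttttttttttaa
CCNT1, chr12:48688464-48688493, minus strand: ccatcccatcAATAAAtgttaatggtaaaa
CCNT2, chr2:134955810-134955839, plus strand: ataAATAAAaaagaaaagattactgactgt
HEXIM1, chr17:45152180-45152209, plus strand: agtgccctctggctttacagtgcagagctg
LARP7, chr4:112657825-112657854, plus strand: gattggttctaATTAAAatgttaaattttt
CDK8, chr13:26405208-26405237, plus strand: atgtAATAAAtttatttttcataaatcaaa
In 9 of the 10 genes, AATAAA or ATTAAA started 10 to 30 bases before the edge, and in 7 of them it was AATAAA. Among all protein-coding genes with a peak in the last exon, 43.3% of the tallest such peaks had one of these hexamers at that distance. HEXIM1 had neither hexamer at that distance. Its peak was 1054 bp wide and ended 110 bp past the annotated end, and ATTAAA lay 20 bases before that annotated end instead.
HEXIM1 annotated end, chr17:45152070-45152099, plus strand: taaaaattatATTAAAcatttattttgaaa

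The list was checked against markers of cell types. All 10 markers of neuroblastoma and sympathetic neurons, among them MYCN, had a peak at an annotated transcript end, with 19 to 123 reads at the summit of the tallest. Of leukocyte markers 0 of 4 had one, of endothelial markers 0 of 2, of fibroblast markers 1 of 3 (COL1A1, 15 reads) and of epithelial markers 1 of 2 (EPCAM, 7 reads). Reads at the summit are the extended reads of all libraries stacked at the highest point of a peak, solved from the deposited fold enrichment and −log10 p-value, and this number cannot exceed 200. They are compared below only within the list. They count distinct read starts in pooled libraries of unknown depth. A tall peak is thus a place with many distinct starts. Its height is neither a total of reads nor a measure of expression in one condition.

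Of the 124 peaks, 93 reached a −log10 q-value of 5, the study's cutoff for sample-specific peaks, and are described from here on. The other 31 had 3 to 22 reads, and 28 of them were intronic. The members nearest the cutoff had −log10 q-values of 5.04 and 4.99. A summit was placed at a transcript end when it lay within 200 bp upstream or 600 bp downstream of any annotated end, and otherwise in an exon, in an intron, or downstream of the gene. By this scheme 19 peaks of the members lay at transcript ends, 12 in exons, 58 in introns and 4 downstream. The intronic share was 62.4% (52.2 to 71.5), beside 64.0% over the peaks of all protein-coding genes. The transcript-end share was 20.4% (13.5 to 29.7), beside 20.2%. The all-gene share lay inside the interval of the members for both classes. These intervals treat peaks as independent, whereas MNAT1 and CDK8 together held 37 of the 58 intronic peaks. Without these genes the intronic share was 43.8%, below the interval.

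**Figure D1:**
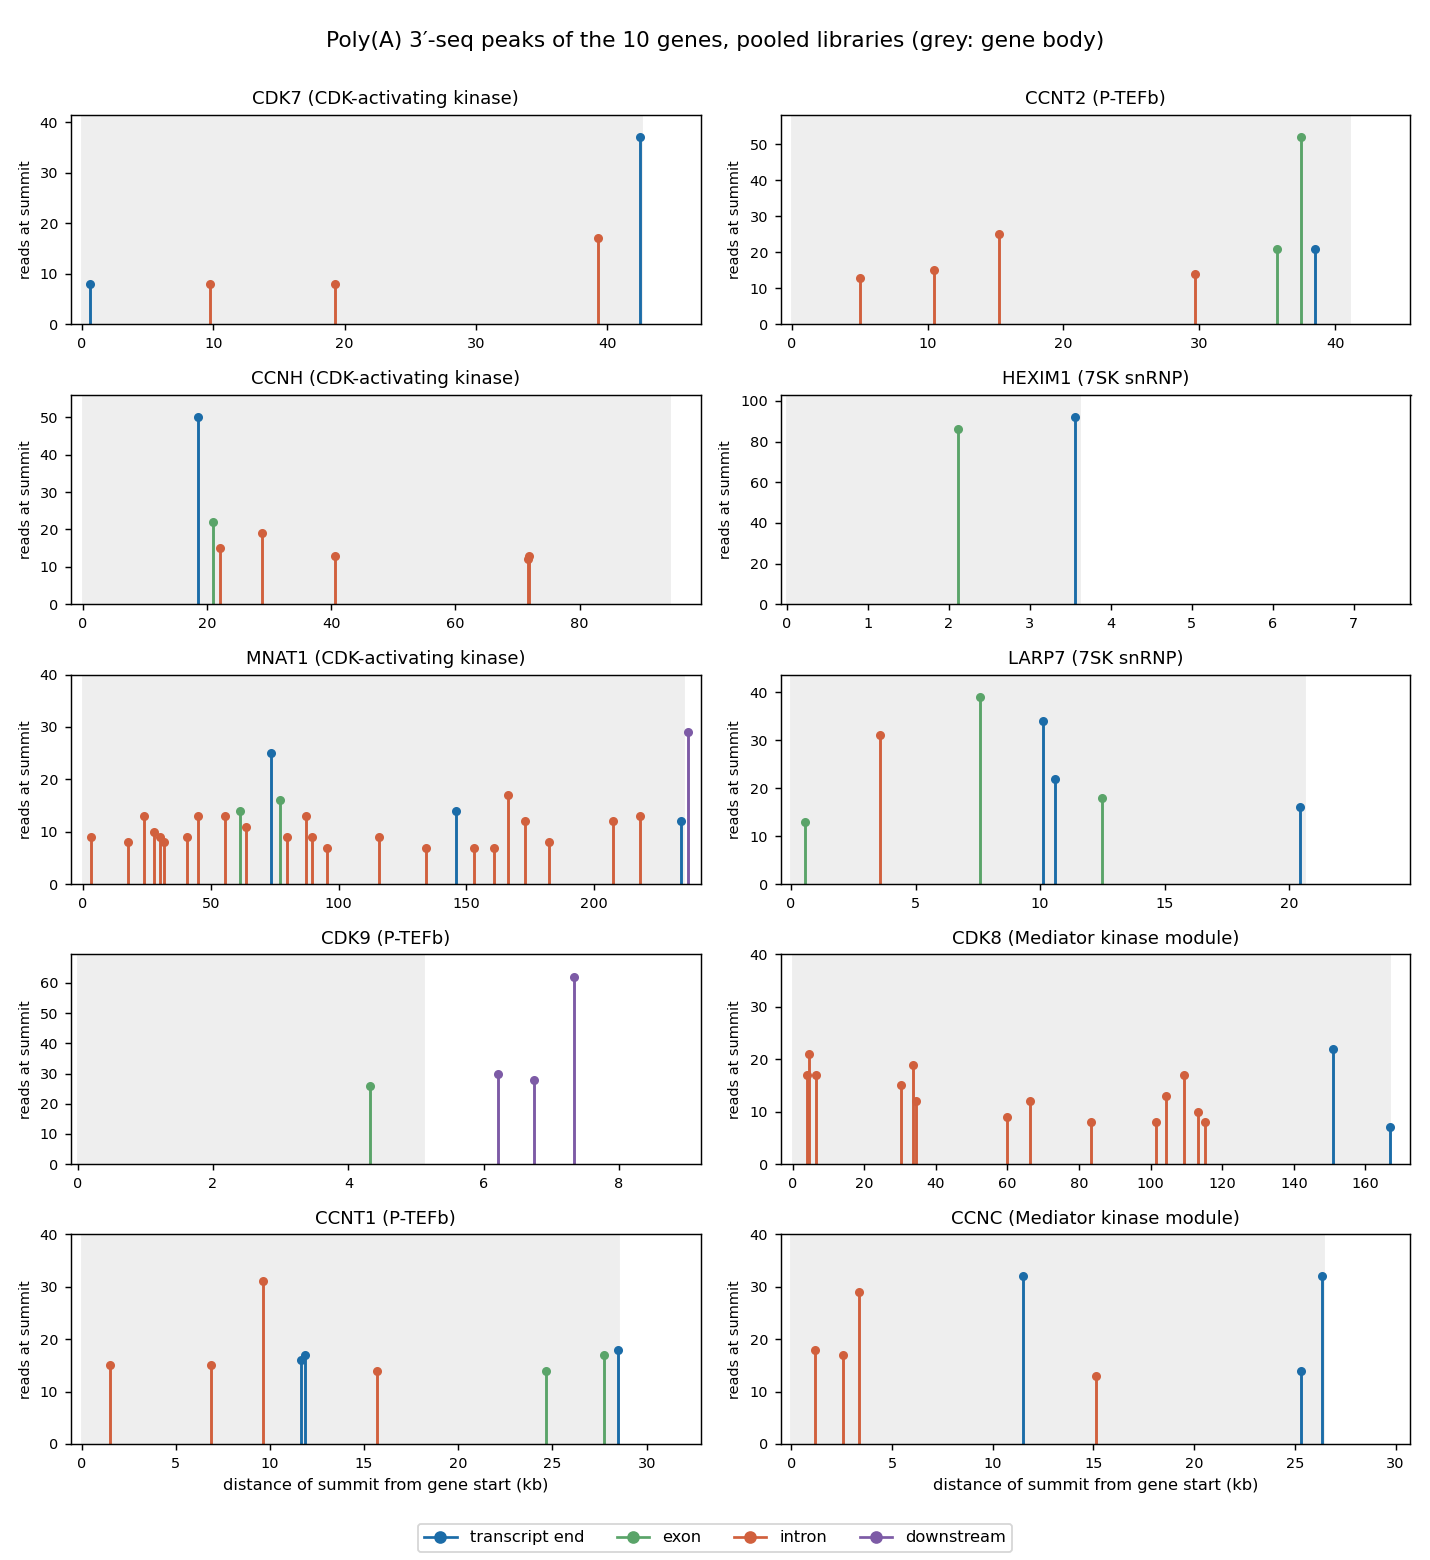
Peaks of the 10 genes, with the distance of the summit from the gene start in kb on the x axis and reads at the summit on the y axis. Each stem is 1 peak of the pooled libraries, coloured by class, and grey marks the gene body. MNAT1 and CDK8 hold long runs of low intronic peaks, whereas the peaks of CDK9 past its annotated end rise to 62 reads.

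A transcript-end peak was found for 9 of the 10 members, where 64.1% of protein-coding genes had one. CDK9 was the gene without one. A peak at the end of the canonical transcript was found for 7 of 10, beside 53.6% of protein-coding genes, the exceptions being CDK9, MNAT1 and CCNT2. The tallest transcript-end peak ranged from 18 reads in CCNT1 to 92 in HEXIM1. Its median over the 9 genes was 32 reads, and over the 12832 protein-coding genes with such a peak it was 25 reads (quartiles 17 and 36). Of the 19 transcript-end peaks, 12 lay at an annotated end other than the canonical one, and 5 of these were inside an intron of the canonical transcript.

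**Figure D2:**
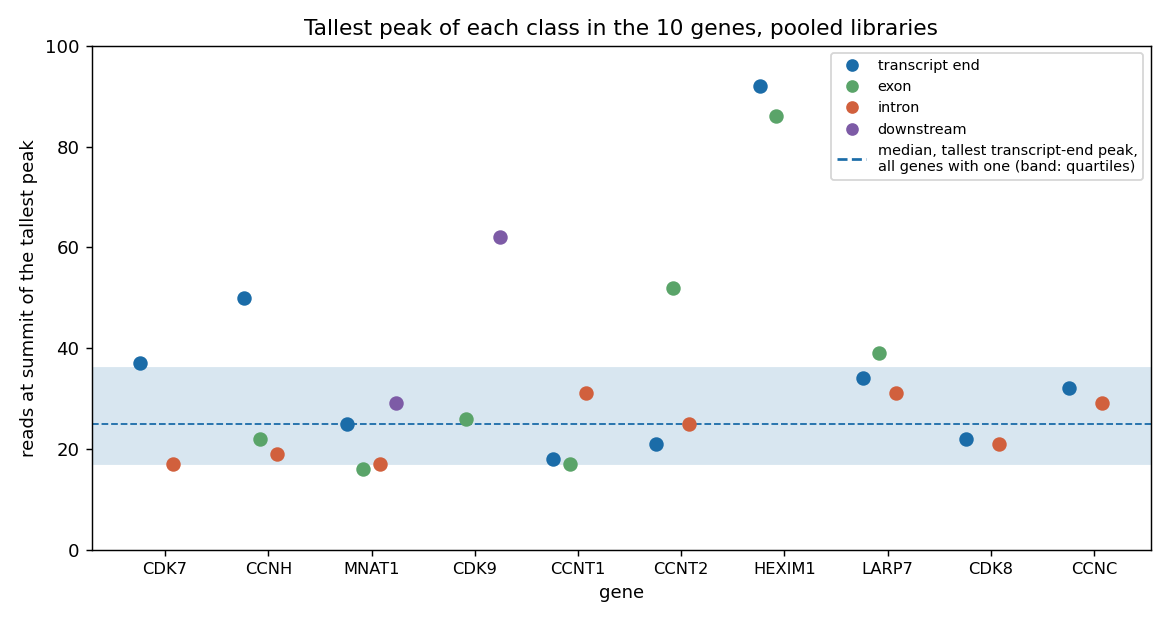
Tallest peak of each class in each gene, with reads at the summit on the y axis. Points are single peaks of the pooled list, the dashed line is the median of the tallest transcript-end peak over all genes with one (25 reads) and the band its quartiles (17 to 36). HEXIM1 stands above the band with 92 and 86 reads, and in CCNT1 and CCNT2 the intronic point lies above the transcript-end point.

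Among the genes of the CDK-activating kinase, CDK7 and CCNH each had a tall peak at the canonical end and MNAT1 did not. CDK7 (chr5:69234795-69277430, plus strand), the catalytic subunit, spans 42.6 kb. Its canonical end carried 37 reads at a −log10 q-value of 31.4, with the 3′ edge 15 bp short of the annotated end. A second transcript-end peak of CDK7, of 8 reads, lay 600 bp from the gene start at the end of an annotated retained-intron transcript. CCNH (chr5:87318416-87412930, minus strand), the cyclin subunit, had 50 reads at its canonical end, with the edge 6 bp past it. This was the tallest transcript-end peak among the members after HEXIM1. MNAT1 (chr14:60734742-60969965, plus strand) encodes MAT1, the assembly factor that holds the kinase and its cyclin together, and is the longest member at 235 kb.

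The transcript-end peaks of MNAT1 lay elsewhere than at the canonical end. The tallest had 25 reads and lay in exon 4, at the end of a transcript without an annotated coding sequence. One of 14 reads lay in intron 7 at the end of a retained-intron transcript. The last, of 12 reads, had its edge 1287 bp short of the canonical end, at an AATAAA that is shown above. At the canonical end itself no peak passed the cutoff. The last 30 bases hold none of the 12 hexamers, and AATAAA starts 32 bases before the end.
MNAT1 annotated end, chr14:60969936-60969965, plus strand: taaattccaaaacctttatacatttgtaaa
A peak of 29 reads lay 1517 bp past the end of MNAT1. It also lay at the annotated 3′ end of TRMT5, a tRNA methyltransferase gene on the other strand. That end is 1476 bp past the end of MNAT1, next to the peak, whereas the peak's edge on the MNAT1 strand lay 1591 bp past it. The list gives no strand, and the gene of origin was not tested. From intron 7 on, 10 peaks of MNAT1 also lay within an annotated gene on the same strand, ENSG00000258892.

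Among the P-TEFb genes, CCNT1 alone had a peak at its canonical end, and the tall peaks of CDK9 and CCNT2 lay past it or before it. CDK9 (chr9:127785679-127790792, plus strand), the kinase, is 5114 bp long and had no peak within the transcript-end window of any annotated end. A peak of 26 reads lay in exon 7, the last one, with its edge 706 bp before the annotated end, at the ATTAAA shown above. Further peaks of 30, 28 and 62 reads lay 1094, 1633 and 2222 bp past the end. The last of these had a −log10 q-value of 37.3, the highest of CDK9. No other gene was annotated there. The next gene in this direction, FPGS on the same strand, starts 3805 bp past the end. None of the 12 hexamers lay in the 100 bp before the edge of the peaks of 30 and 62 reads, and at the peak of 28 reads only GATAAA did. CDK9 and MNAT1 were the 2 of 10 members with a peak more than 600 bp and up to 4 kb past the gene end, beside 26.1% of protein-coding genes. The peak of MNAT1 is the one at the annotated end of TRMT5. The annotated end of CDK9 carries AGTAAA, a weaker variant of the signal.
CDK9 annotated end, chr9:127790763-127790792, plus strand: caaaaggccAGTAAAagtaagaaaaaaaaa

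CCNT1 (chr12:48688458-48716998, minus strand) and CCNT2 (chr2:134918235-134959342, plus strand) encode alternative cyclins of P-TEFb. CCNT1 had 18 reads at its canonical end, with the edge 6 bp before it. Further transcript-end peaks of 16 and 17 reads lay in intron 3, at the end of a retained-intron transcript. Peaks of 14 and 17 reads lay in exon 9, the last one, 3882 and 783 bp before the end. CCNT2 had its tallest peak, of 52 reads, in exon 9, the last one, 3591 bp before the canonical end. Another exonic peak of 21 reads lay in the coding part of the same exon, after 520 of 730 codons. Its transcript-end peak, also of 21 reads, was at the end of a transcript annotated for nonsense-mediated decay, 2586 bp before the canonical end. No peak of CCNT2 passed the cutoff at the canonical end.
In CCNT1 and CCNT2 the tallest intronic peak exceeded the tallest transcript-end peak, with 31 against 18 reads and 25 against 21 reads. They were the 2 of 8 members with both kinds of peak for which this held, beside 38.3% of all such genes. With the 52 reads of its last exon counted as an end, CCNT2 would not be among them. Neither of the 2 intronic peaks had any of the 12 hexamers on the gene strand in the 100 bp before its edge.

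The 7SK genes had few peaks, all but 1 of them in exons or at transcript ends. HEXIM1 (chr17:45148475-45152099, plus strand) is a gene of 3625 bp with a single exon. Both of its peaks were broad. The first, of 86 reads and 751 bp, lay 1514 bp before the end, and the second, of 92 reads and 1054 bp, lay at the end. Their heights were close to each other and above the tallest transcript-end peak of any other member. Both lay in HEXIM2-AS1 on the other strand, the first at an annotated end of it, and the share of each gene in them cannot be told apart. LARP7 (chr4:112637077-112657696, plus strand) had 16 reads at its canonical end, in a peak of 630 bp whose edge lay 268 bp past the annotated end. ATTAAA started 19 bases before that edge, and AATAAA started 22 bases before the annotated end itself. Taller transcript-end peaks of 34 and 22 reads lay at intron 6 and exon 8, close to ends of shorter annotated transcripts. The tallest peak of LARP7, of 39 reads, lay in an annotated exon within the first canonical intron. The peaks of 34, 22 and 18 reads lay in MIR302CHG, the host gene of the miR-302 cluster, on the other strand, and that of 22 reads lay at microRNA genes of this cluster.

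In the Mediator kinase module both genes had a peak at the canonical end. CDK8 (chr13:26254104-26420982, plus strand) spans 167 kb and had 22 reads there, with the edge 1 bp before the annotated end. A second transcript-end peak, of 7 reads, lay 43 bp before the annotated end of the gene, 15701 bp past the canonical end. CCNC (chr6:99542387-99568825, minus strand), the cyclin, had 32 reads at its canonical end with the edge on the annotated last base. A peak of the same height lay in intron 5 at the end of CCNC-204, a shorter coding transcript, and another peak, of 14 reads, lay 1125 bp before the canonical end. All 7 peaks of CCNC lay within TSTD3 on the other strand, and 1 of them, of 13 reads in intron 5, lay at an annotated end of TSTD3.

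Intronic peaks were found in 8 of the 9 members with an intron, beside 62.4% of all protein-coding genes with an intron and 79.7% of those that also had a transcript-end peak. CDK9, with 2.11 kb of intron, had none. MNAT1 had 23 and CDK8 had 14, together 37 of the 58. CCNH had 5, CCNT1, CCNT2 and CCNC had 4 each, CDK7 had 3 and LARP7 had 1. Genes of like length, within 1.25-fold, had medians of 16 for MNAT1, 14 for CDK8, 8 for CCNH, 4 for CDK7 and CCNT2, 3 for CCNT1 and CCNC and 2 for LARP7. MNAT1, CCNT1 and CCNC had more than the median of their length class, CCNH, CDK7 and LARP7 had fewer, and CDK8 and CCNT2 were at it. Summed over the members there were 0.0949 intronic peaks per kb of intron (exact Poisson interval 0.0721 to 0.123), beside 0.0862 over all genes with a transcript-end peak. The median per gene ran the other way, 0.0864 for the members and 0.0994 for all such genes. CCNT1 and CCNC had the highest values, 0.189 and 0.192 peaks per kb, and CCNH the lowest above 0, 0.0565. All intronic peaks of CCNC and CCNH also lay in genes on the other strand, so their densities cannot be assigned to these members alone.

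**Figure D3:**
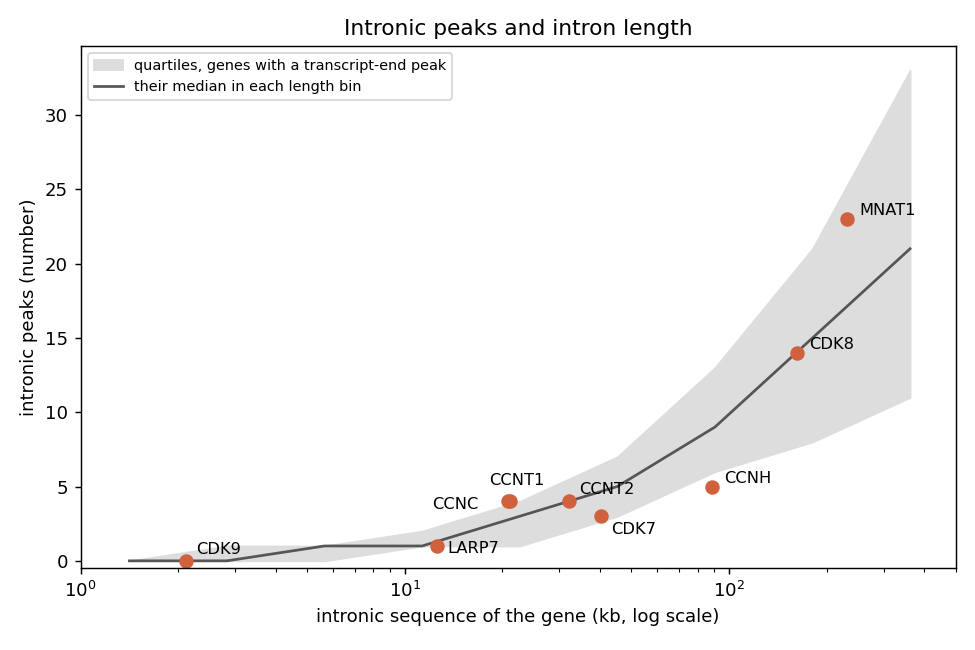
Number of intronic peaks (y axis) against intronic sequence of the gene in kb (x axis, log scale). Points are the members with an intron, the line is the median of genes with a transcript-end peak in bins of intron length and the grey band their quartiles. CDK8 with 14 peaks lies on the line, MNAT1 with 23 lies above it and CCNH with 5 lies below the band.

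The intronic peaks were low. Their median was 13 reads, with a range from 7 to 31, beside a median of 12 reads for intronic peaks of all genes. In MNAT1 they had 7 to 17 reads with a median of 9, and in CDK8 they had 8 to 21 with a median of 12.5. At a −log10 q-value of at least 20, 2 intronic peaks of the members remained, out of 14 peaks at that level. They were 1 of 31 reads in CCNT1 and 1 of 31 reads in LARP7. Neither had any of the 12 hexamers on the gene strand in the 100 bp before its edge. Every member had at least 1 peak at that level. HEXIM1 and CCNC had 2, LARP7 had 3, and that of MNAT1 was its peak of 25 reads in exon 4.

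First introns held many of the intronic peaks. Of the 53 that fell in an intron of the canonical transcript, 23 were in the first intron (43.4%, 31.0 to 56.7). First introns would hold 29.6% if peaks followed intronic bases within each gene, and over all protein-coding genes the share was 31.6% of peaks for 26.3% of bases. Without MNAT1 and CDK8 the share of the members was 31.25%. MNAT1 had 9 in intron 1, which is 61.3 kb long, 5 in intron 6 and 7 in intron 7, which is 88.4 kb long. CDK8 had 9 in its first intron of 82.8 kb and 5 in intron 4. CCNC had 3 in its first intron of 5.55 kb, all of them also within TSTD3 on the other strand. The distance from the 5′ splice site had a median of 9422 bp and reached from 30 bp, in intron 7 of CCNT2, to 82783 bp in CDK8. All 5 intronic peaks of CCNH lay past its canonical end, in introns of longer annotated transcripts, and all 5 also lay in RASA1 on the other strand, as did its exonic peak at the 3′ end of RASA1.

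Several of these sites lay early in the reading frame. Ends in intron 1 of CDK8 would leave 42 of 464 codons, or 50 at the last site, whose edge reached exon 2. Ends in intron 4 of CDK8 would leave 152 codons. In CCNC the first-intron sites followed 10 of 283 codons and the site in intron 5 followed 115. In MNAT1 they followed 29 codons of 309 for intron 1, 229 for intron 6 and 269 for intron 7. CCNT1 had sites after 53, 81 and 124 of 726 codons, CCNT2 after 80 and 234 of 730, and CDK7 after 42, 53 and 288 of 346. The intronic site of LARP7 lay before its start codon. These are counts from the canonical coding sequence, and no protein product was measured.

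Of the intronic peaks, 32 of 58 had at least 1 of the 12 hexamers in the 100 bp before the edge (55.2%), beside 57.0% of intronic peaks of all genes. AATAAA was found in 20.7%, beside 26.3%. On the opposite strand, 29.3% of the intronic peaks of the members held one of them, beside 38.0% for all genes. By complex, a hexamer on the gene strand was found at 19 of 31 intronic peaks of the CDK-activating kinase, at 12 of 18 of the Mediator kinase module, at 1 of 8 of P-TEFb and at 0 of 1 of the 7SK snRNP. At transcript ends of the members the share was 84.2% (62.4 to 94.5), beside 79.2% for all genes.

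Over all classes, 59 of the 93 peaks had a hexamer on the gene strand (63.4%), beside 62.5% for all genes. AATAAA was the commonest, found at 22 peaks (23.7%), beside 30.5% for all genes. Next came ATTAAA at 15 peaks (16.1%, beside 12.5%) and AAGAAA at 15 (16.1%, beside 13.8%). CATAAA was found at 9 peaks (9.68%, beside 4.32%) and AATAGA at 9 (9.68%, beside 4.32%). TATAAA was found at 9 peaks (9.68%, beside 7.36%), AATATA at 9 (9.68%, beside 6.54%) and AGTAAA at 8 (8.60%, beside 5.78%). AATGAA was found at 7 (7.53%, beside 7.70%), GATAAA at 6 (6.45%, beside 4.17%), ACTAAA at 4 (4.30%, beside 3.58%) and AATACA at 3 (3.23%, beside 5.10%). A peak can hold several, and some overlap in sequence.

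AATAAA or ATTAAA started 10 to 30 bases before the edge at 10 of 58 intronic peaks, beside 21.2% of intronic peaks of all genes. Of those with AATAAA, 6 in CDK7, MNAT1 and CDK8 are printed because their layout can be set beside that of the last exons above.
CDK7 intron 10, chr5:69274087-69274116, plus strand: ttccatcatAATAAActtgagaccacattt
MNAT1 intron 3, chr14:60798729-60798758, plus strand: ttcttaAATAAAatttcagagatgttaaaa
MNAT1 intron 6, chr14:60821945-60821974, plus strand: gtacagccaaAATAAAaaaattgtttttat
CDK8 intron 1, chr13:26287716-26287745, plus strand: tgaagtaaaaatataAATAAAtagatcaaa
CDK8 intron 1, chr13:26288468-26288497, plus strand: tctaattcatAATAAAtataataggtaata
CDK8 intron 4, chr13:26367278-26367307, plus strand: gcagagcaaAATAAAgaacaacaaaaggag
Over all 7 intronic peaks with AATAAA at this distance, the hexamer started 10 to 24 bases before the edge and the peaks had 7 to 19 reads. The site of CDK7 had 17 reads, the tallest intronic peak of that gene, and lay 1025 bp into intron 10. The sites of CDK8 in intron 1 had 19 and 12 reads and lay 32900 and 33651 bp from the 5′ splice site.

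**Figure D4:**
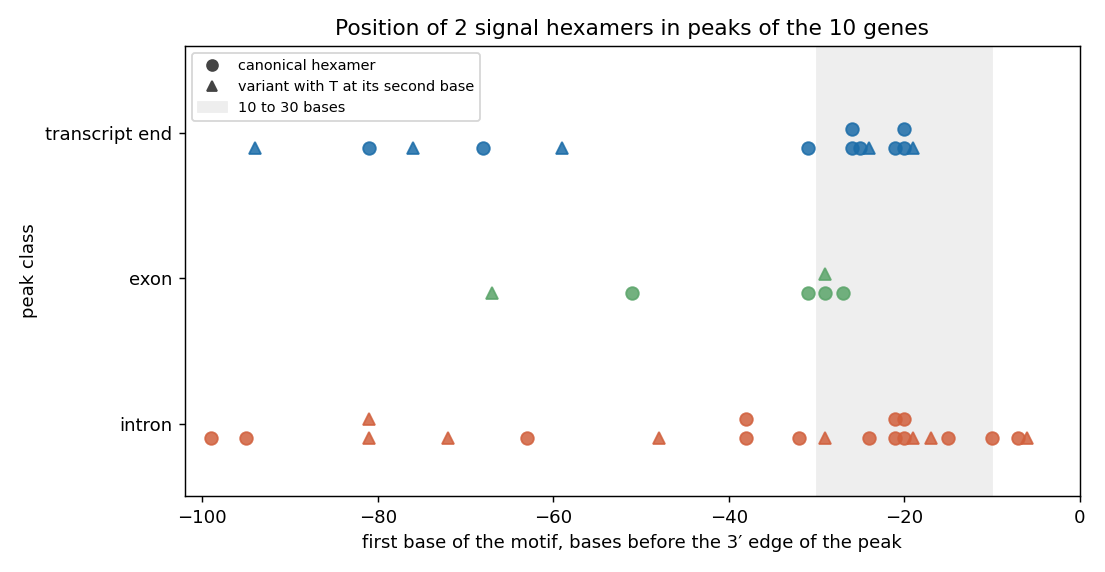
Position of AATAAA (circles) and ATTAAA (triangles) in transcript-end, exonic and intronic peaks of the 10 genes. The x axis gives the first base of the motif in bases before the 3′ edge of the peak, the rows are peak classes, and the grey band spans 10 to 30 bases. A motif lies in the band at 8 of 19 transcript-end peaks and at 10 of 58 intronic peaks.

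Some intronic peaks lay next to genomic A-rich sequence, at which the oligo(dT) primer of the library kit can anneal. Windows of 25 bases with 22 or more A, within 50 bp downstream of the edge, were found at 3 of 58 intronic peaks (5.17%), beside 5.52% for all genes. No other peak of the members had one, which made 3.23% of the 93, beside 4.01% for all genes. All 3 had 8 reads. Per its methods, the study removed peaks with such a stretch and no hexamer. The peaks in CDK7 intron 2 and MNAT1 intron 7 had no hexamer, and both are in the deposited list. With such peaks removed, 56 intronic peaks remained. The 25 bases of all 3 are printed with A in capitals to show what such a place looks like.
CDK7 intron 2, chr5:69244637-69244661, plus strand: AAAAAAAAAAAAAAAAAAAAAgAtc
MNAT1 intron 1, chr14:60766348-60766372, plus strand: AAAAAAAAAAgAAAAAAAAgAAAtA
MNAT1 intron 7, chr14:60916972-60916996, plus strand: AAAAAAcAAAAAtAAAAAcAAAAAA
With the limit at 18 A, 18 of 58 intronic peaks had such sequence (31.0%, 20.6 to 43.8), beside 26.9% for all genes. Over all classes it was 23.7% of the members' peaks, beside 19.6%. No hexamer and at least 18 A were found at 12 intronic peaks, and a hexamer with fewer than 18 A at 26. Whether the 12 come from priming inside the transcript was not tested.

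Most members had a lower GC content and fewer U1 motifs per AATAAA than the median gene. The U1 motifs counted were GGTGAG, with GGTAAG, and with GTGAGT, which can overlap, on the gene strand from the start to the end of each gene. The ratio of U1 motifs to AATAAA was 0.291 in CCNH, 0.378 in CCNC, 0.5 in HEXIM1, 0.510 in CDK8, 0.590 in CCNT2, 0.593 in MNAT1 and 0.708 in LARP7. It was 1.20 in CCNT1 and 1.22 in CDK7, above the median of 1.00 over genes with a transcript-end peak. CDK9 has 9 U1 motifs and no AATAAA. Of the genes with a transcript-end peak, 2.63% have no AATAAA. GC content was below the median of 45.0% in 8 of the 10 genes, with CDK9 at 57.4% and HEXIM1 at 48.3% above it. CCNH, with the lowest ratio, had the lowest density of intronic peaks above 0, while CCNC, with the next lowest, had the highest. All 5 intronic peaks of CCNH and all 4 of CCNC lay in genes on the other strand, RASA1 and TSTD3. Neither density can therefore be assigned to the member alone. For CCNH, ratio and density cover a gene of 94.5 kb whose canonical-end summit lay 75940 bp before the gene end.

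Further genes of the same complexes were counted alongside. Over all protein-coding genes, 64.1% had a transcript-end peak. An intronic peak was found in 62.4% of those with an intron, and in 79.7% of those that also had a transcript-end peak. In the core of TFIIH, 7 of 7 genes had a transcript-end peak and 6 of 7 an intronic one, with a median of 3 intronic peaks and the most, 5, in GTF2H1, which encodes a structural subunit. GTF2H2 has near-identical copies in the genome, so that its peaks are uncertain. Of 10 further 7SK and super elongation genes, 9 had a transcript-end peak, the exception being HEXIM2, the paralog of HEXIM1, and 10 of 10 had an intronic peak, with a median of 4 and the most, 20, in AFF1, a scaffold of the super elongation complex. Of 6 pausing factors, 6 had a transcript-end peak and 5 an intronic one, with a median of 2.5 and the most, 6, in NELFB. The 5 partners and paralogs of the Mediator kinase module all had a transcript-end peak and 4 had an intronic one, with a median of 22 and the most, 39, in MED13L, a gene of 319.8 kb. All 4 genes of CDK11 and its cyclins had a transcript-end peak and 3 an intronic one. CDK11A and CDK11B, near-identical copies, had the most intronic peaks, 2 each, and the split of reads between them is uncertain. Over all genes with an intron and a transcript-end peak the median was 3 intronic peaks, beside 4 over the 9 members with an intron. These medians were not matched for gene length. The median length was 206 kb in the Mediator list, 78.1 kb in the 7SK and super elongation list and 31.0 kb in the TFIIH list. It was 16.1 kb for the pausing factors and 18.1 kb for CDK11 and its cyclins, beside 35.0 kb over genes with a transcript-end peak.

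The targets of THZ531 can be set beside the members. CDK12 had 10 intronic peaks, CDK13 had 22 and CCNK, the gene of their cyclin, had 8. Their tallest transcript-end peaks had 19, 28 and 39 reads and their tallest intronic peaks 23, 22 and 23 reads. These values lie within the ranges of the members, 18 to 92 reads at transcript ends and 17 to 31 reads in introns. The tallest intronic peak exceeded the tallest transcript-end peak in CDK12, as in CCNT1 and CCNT2. Over all genes with both kinds of peak, the intronic one was at least as tall in 38.3%. CDK12 and CDK13 had no peak at their canonical end, whereas CCNK had 1. CDK12 had 2 exonic peaks, which were not counted as ends. Whether counting them would change the comparison for CDK12, as it would for CCNT2, was not tested.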

How the data were processed

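Poly(A) 3′-seq libraries of IMR-32 cells were prepared with a kit whose reads start at the poly(A) junction. Per the study's methods, the authors mapped trimmed reads to GRCh38 with STAR 2.5.1b, keeping up to 20 placements, merged all samples (assumed to mean the 6 libraries) and called peaks with MACS2 2.1.1, extending reads to 100 bp without a control. The deposited list gives a fold enrichment (a ratio of pileup plus 1 to background plus 1), a −log10 p-value, a −log10 q-value, a score that was not used and the offset of the summit. Depth per library is unknown. MACS2 keeps 1 read per start, so reads are not molecule counts.

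Reads at the summit were solved from fold and −log10 p as a Poisson upper tail. The largest misfit was 0.000172, and 100% of 12476 simulated peaks were recovered. Genes and transcript ends came from GENCODE release 44, whereas the study used release 27. Hexamers were searched in the 100 bp ending at the 3′ edge on the gene strand. Shares have Wilson intervals and the density an exact Poisson interval. All 10 members were named. Of each further list, the gene with the most intronic peaks and genes without a transcript-end peak were named. The members and lists were chosen with earlier results of these data known. No test was run, since the list holds 1 pooled value per peak. Python 3.11.15, NumPy 2.4.6, pandas 2.3.3 and SciPy 1.17.1 were used. Alternatives changed the cutoff, transcript-end window, annotation, strand overlap, merging, A stretch, hexamers and downstream zone. Some sequences are not reported here.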

Additional observations from a re-analysis of the deposited data

How the results depend on the processing

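Across 9 summary values and 15 alternative settings, 67 of 82 alternative values stayed within their interval or within 1.5 times the reported count. The cutoff mattered most. With all peaks of the list the density of intronic peaks was 0.141 per kb. At a −log10 q-value of at least 20 it was 0.00327 per kb, with 2 intronic peaks and an intronic share of 14.3%. The A-stretch share was then 0%, and 1 downstream peak remained. Of the members with both kinds of peak left at that level, 0 had the taller one in an intron. CCNT1 kept only its intronic peak there and was not compared. Removing every peak with at least 18 A lowered the density to 0.0655 per kb. The share of peaks with a hexamer, 63.4% with 12 hexamers and 100 bp, was 23.7% with AATAAA alone, 34.4% with AATAAA and ATTAAA, and 52.7% in a window of 50 bp. The share next to an A stretch, 3.23% at 22 A, was 23.7% at 18 A. With a downstream zone of 1 kb, 0 of the 4 downstream peaks remained. Without MNAT1 and CDK8, an alternative chosen after seeing the data, 21 intronic peaks and an intronic share of 43.8% remained. Leaving out transcript ends that the annotation marks as incomplete was also chosen after seeing the data and left all 5 values it was applied to within that limit. The number of members with a transcript-end peak, 9, was 7 at a −log10 q-value of at least 20, 7 with canonical transcripts only and 7 without peaks in genes of the other strand. The first-intron share ranged from 31.25%, without MNAT1 and CDK8, to 50%, at a −log10 q-value of at least 20. No paired analysis was possible because libraries were merged before peaks were called, and for the same reason no replicate could be left out. Without strand, 19 of the 93 peaks cannot be told apart from a gene on the other strand.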
